A study of Mus musculus with 12 samples.

Results

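Gene expression in whole mouse yolk sacs at embryonic day 9.5 was compared between homozygotes for a point mutation of Arid1a and wild-type embryos. The 6 arrays whose titles give E9.5 were taken, of 12 in the series. They fall into 3 arrays of Arid1a V1068G/V1068G mutants, which the titles call Baf250, and 3 arrays of wild type, and both groups carry the background strain CD1 in the labels. The other 6 arrays hold the same 2 genotypes at E8.5. On every array yolk sac RNA was labelled with Cy5 and set against 1 Cy3-labelled reference, RNA of whole wild-type neonatal mice of mixed 129Sv and C57BL/6 background. The design text calls the 3 samples of a condition biological replicates, but not whether each was 1 yolk sac or a pool. Each value below is a log2 ratio of yolk sac over reference, normalized within its array, and each difference is mutant minus wild type.

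ARID1A, also named BAF250A, is a subunit of the SWI/SNF (BAF) chromatin remodelling complex, which uses ATP to move nucleosomes at promoters and enhancers. Its ARID domain binds DNA, and the V1068G change, a valine replaced by a glycine, lies in that domain. The visceral yolk sac is an endodermal epithelium over a mesodermal layer. The endoderm takes up maternal nutrients and secretes plasma proteins, much as the fetal liver does later. The mesoderm forms blood islands, with the first red cells, megakaryocytes and macrophages, and the endothelium of the vitelline vessels.

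The 6 arrays were alike in depth of signal: between 48.0% and 50.1% of probes had a Cy5 signal well above background. Yolk sac identity was checked against its defining genes, all of them above background on the 6 arrays. Cubn, the endocytic receptor cubilin of the visceral endoderm, had log2 ratios of 5.05, 5.37 and 5.26 on the mutant arrays, against 5.36, 5.53 and 5.28 on the wild-type arrays. Embryonic alpha-like globin Hba-x stood at 4.79, 4.69 and 4.65 on the mutant arrays, against 4.81, 4.71 and 4.79 on the wild-type arrays. Afp, alpha-fetoprotein, stood at 1.77, 2.16 and 1.94 on the mutant arrays, against 2.26, 2.25 and 2.12 on the wild-type arrays, and none of these 3 differed past the test (adjusted p = 0.569, 0.869 and 0.392). Transcripts of other tissues varied between replicates of both genotypes. Prl4a1, a prolactin-family hormone of trophoblast, stood at 0.76, 0.26 and 3.74 on the mutant arrays, against 0.49, 1.18 and 4.31 on the wild-type arrays, so replicate 3 was high in both groups. Prl8a2, a decidual hormone, stood at 0.86, 3.37 and 1.42 on the mutant arrays, against 0.74, 2.47 and 1.45 on the wild-type arrays, with replicate 2 high in both. Xist, the RNA of the inactive X chromosome, stood at -1.75, -0.52 and -1.14 on the mutant arrays, against -1.98, -4.02 and -1.35 on the wild-type arrays, and wild-type replicate 2 lay far below the other 5 arrays. The 7 trophoblast genes that could be tested averaged 0.68, 0.45 and 1.98 on the mutant arrays, against 0.62, 0.84 and 1.79 on the wild-type arrays. Heart and muscle genes averaged between -3.12 and -3.00 in the mutants, against -3.14 and -3.01 in wild type. The part of these transcripts in the results was not tested beyond the values given below without replicate 3 and with Xist as a covariate.

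Arid1a itself stood at -0.27, -0.13 and -0.16 on the mutant arrays, against -0.34, -0.32 and -0.38 on the wild-type arrays. The groups did not overlap, but the difference of 0.16 ± 0.06 (± standard error, n = 3 arrays in each group; adjusted p = 0.30) did not pass the test. A point mutation leaves the transcript in place, so this level does not check the genotype labels. None of the 25 tested SWI/SNF subunits passed, and their median difference was -0.02, beside 0.0002 over all genes.

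Of 13896 genes tested, 277 (1.99%) changed at an adjusted p under 0.05 in limma's test: 127 rose in the mutants (0.914%) and 150 fell (1.08%). Most of these differences were small. Their median size was 0.376 on the log2 scale, 42 genes passed 1.5-fold, and 2 genes, Emid1 and Csf2rb, fell past 2-fold. All 277 had mutant and wild-type values that did not overlap, a pattern found in 2399 of all genes (17.3%). The count depended on single arrays: it was 145 without wild-type replicate 2, 162 without wild-type replicate 1, 168 without mutant replicate 2, and 158 without replicate 3 of both groups. It was 134 with the Xist ratio as a covariate, 173 with Feature Extraction's processed signals and 181 with the deposited value table. Centring each array in place of the intensity-dependent fit left 26 calls, of which 5 rose and 21 fell. Of the 81 changed genes taken up by the naming rule, 59 kept their call with each of the 6 arrays left out in turn, and the other 22 are marked where they appear. Leaving out replicate 3 of both groups lost 25 of the 81.

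**Figure D1:**
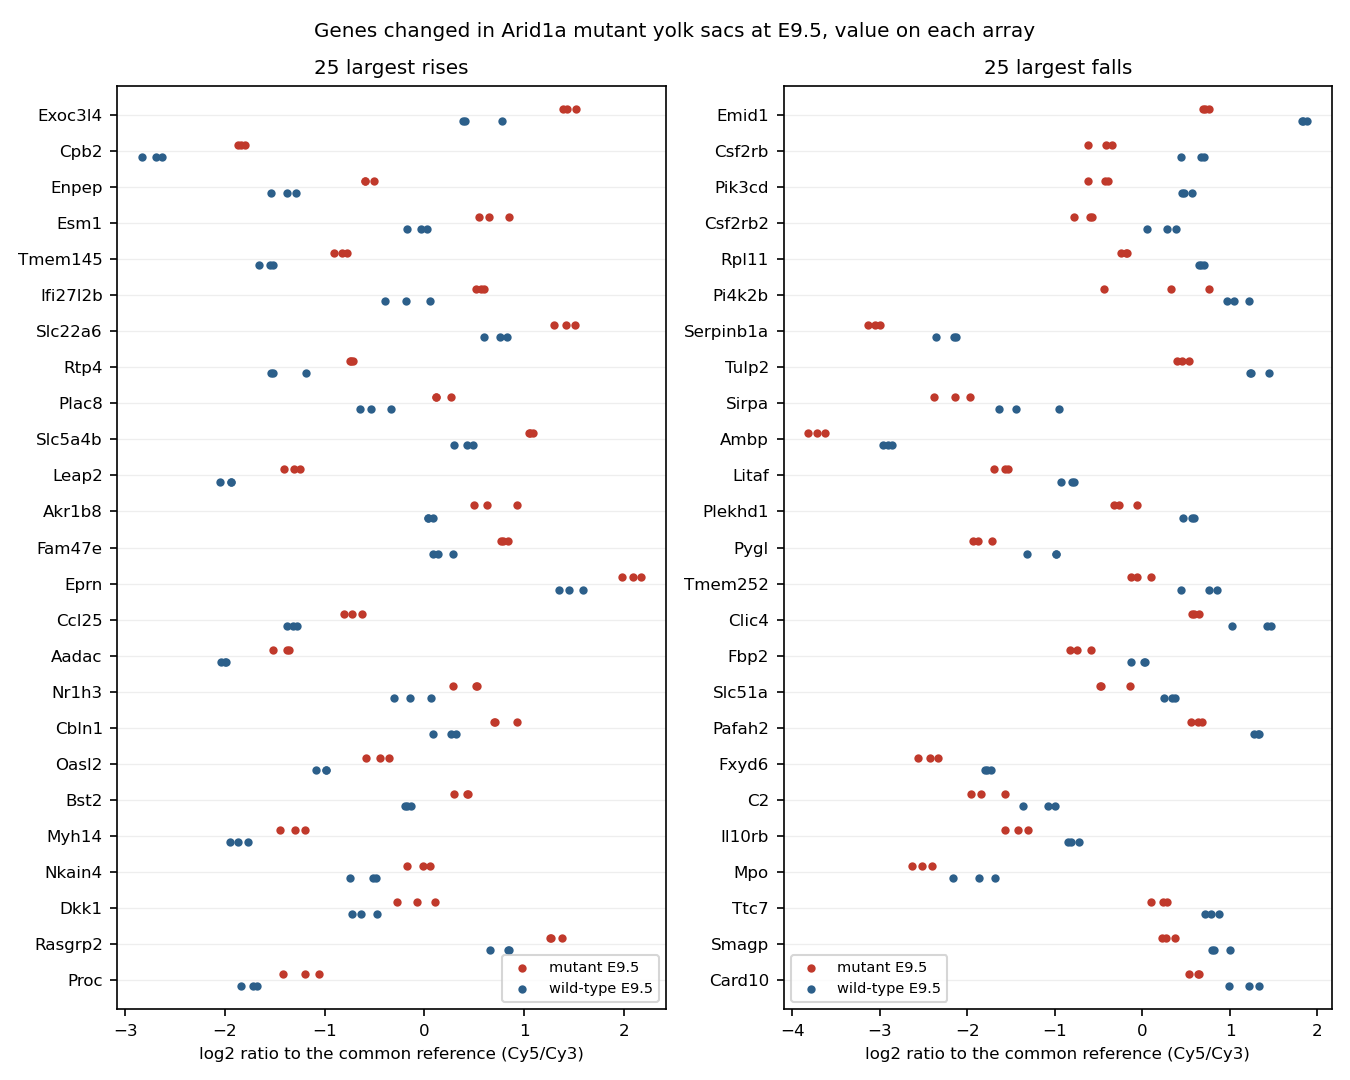
Log2 ratio to the common reference on each E9.5 array (horizontal axis) for the 25 genes with the largest rises (left) and the 25 with the largest falls (right) among changed, officially named genes; red points are the 3 mutant arrays and blue points the 3 wild-type arrays. The groups are apart for every gene shown, and the spread within a group is widest for Pi4k2b, whose mutant values run between -0.43 and 0.76.

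The largest falls included the shared receptor chain of the cytokines IL-3, IL-5 and GM-CSF and a kinase of leukocyte signalling. Csf2rb, that common beta chain, had log2 ratios of -0.35, -0.62 and -0.42 on the mutant arrays, against 0.66, 0.70 and 0.44 on the wild-type arrays. Its neighbouring paralogue Csf2rb2, the beta chain specific to mouse IL-3, stood at -0.58, -0.78 and -0.59 on the mutant arrays, against 0.28, 0.39 and 0.05 on the wild-type arrays. Every mutant array lay below every wild-type array for both, with differences of -1.06 ± 0.13 (adjusted p = 0.000371) and -0.89 ± 0.12 (adjusted p = 0.00123). The genes are near-identical, so the probes may share transcripts, and a second, dimmer probe of Csf2rb gave 0.03. Pik3cd, the leukocyte catalytic subunit of phosphoinositide 3-kinase, stood at -0.62, -0.43 and -0.39 on the mutant arrays, against 0.56, 0.48 and 0.45 on the wild-type arrays. Its difference was -0.98 ± 0.08 (adjusted p = 1.93e-05), and the 3 mutant values spanned 0.23. Pik3cd lies on chromosome 4, 156 tested genes from Arid1a, and the part of the linked chromosome in its fall was not tested. Of the 19 tested members of the list for these receptors and their signalling, these 3 fell and none rose (median -0.02), beside 1.08% of all genes that fell.

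Myeloid genes moved in both directions. Mpo, the myeloperoxidase of granule-bearing myeloid cells, stood at -2.63, -2.52 and -2.40 on the mutant arrays, against -1.87, -1.68 and -2.16 on the wild-type arrays. Sirpa, an inhibitory receptor that binds CD47, stood at -2.39, -1.97 and -2.14 on the mutant arrays, against -1.44, -0.95 and -1.63 on the wild-type arrays. Both fell, at -0.62 ± 0.10 (adjusted p = 0.00513) and -0.82 ± 0.15 (adjusted p = 0.00721). Plac8, a small cysteine-rich protein of myeloid and placental cells, rose, with 0.12, 0.26 and 0.12 on the mutant arrays, against -0.65, -0.53 and -0.33 on the wild-type arrays and a difference of 0.67 ± 0.10 (adjusted p = 0.00252). The remaining 23 of 26 tested myeloid genes did not pass, and the list's median was -0.04. Calls made up 11.5% of the list, beside 1.99% of all genes. With the replicate number as a block, 2 rose and 4 fell. Csf1r, the receptor that macrophages need, differed by -0.05 ± 0.07 (adjusted p = 0.872). In whole yolk sacs, fewer cells of a type and less RNA in each cell cannot be told apart.

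Several other falls were large. Emid1, an extracellular protein with an EMI domain, stood at 0.72, 0.69 and 0.76 on the mutant arrays, against 1.88, 1.82 and 1.84 on the wild-type arrays. With a difference of -1.13 ± 0.09 (adjusted p = 1.93e-05) it was the largest fall of an officially named gene, to 0.459 of the wild-type level. Serpinb1a, an intracellular inhibitor of neutrophil proteases, stood at -3.14, -3.00 and -3.05 on the mutant arrays, against -2.15, -2.13 and -2.36 on the wild-type arrays. Ambp, the precursor of the plasma proteins alpha-1-microglobulin and bikunin, stood at -3.71, -3.62 and -3.82 on the mutant arrays, against -2.97, -2.86 and -2.91 on the wild-type arrays. Slc51a, a subunit of the basolateral transporter for bile acids and steroids, stood at -0.48, -0.48 and -0.14 on the mutant arrays, against 0.34, 0.37 and 0.25 on the wild-type arrays. None of these overlapped between groups, and the differences were -0.85 ± 0.07, -0.81 ± 0.11 and -0.68 ± 0.09 (adjusted p = 2.83e-05, 0.000934 and 0.000676).

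Other large falls included metabolic enzymes and membrane proteins. Fbp2, the muscle-type fructose bisphosphatase, fell, at -0.69 ± 0.08 (adjusted p = 0.000412). Pygl, the liver glycogen phosphorylase, had -0.74 ± 0.17 (adjusted p = 0.0401); it lost its call without mutant replicates 1, 2 or 3 or wild-type replicates 1 or 2 (adjusted p up to 0.164). Pi4k2b, a kinase for phosphatidylinositol, stood at -0.43, 0.76 and 0.33 on the mutant arrays, against 1.05, 1.22 and 0.96 on the wild-type arrays. Its difference of -0.86 ± 0.20 (adjusted p = 0.046) lost its call without mutant replicates 1 or 3 or wild-type replicates 1, 2 or 3 (adjusted p up to 0.179). Litaf, a membrane protein of late endosomes, stood at -1.70, -1.54 and -1.57 on the mutant arrays, against -0.81, -0.78 and -0.93 on the wild-type arrays and fell, at -0.76 ± 0.08 (adjusted p = 0.000249). Its second probe gave -0.53. Plekhd1, which carries a pleckstrin homology domain, stood at -0.32, -0.06 and -0.26 on the mutant arrays, against 0.57, 0.59 and 0.47 on the wild-type arrays and fell, at -0.76 ± 0.07 (adjusted p = 3.48e-05). Tulp2, Tmem252, Fxyd6, Ttc7, Smagp and Card10 fell, with differences between -0.85 and -0.58. The second probe of Fxyd6 gave only -0.10.

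The largest rises belonged to genes of differing roles. Exoc3l4, a relative of an exocyst subunit, stood at 1.39, 1.43 and 1.52 on the mutant arrays, against 0.41, 0.39 and 0.78 on the wild-type arrays and rose by 0.92 ± 0.11 (adjusted p = 0.000274). Enpep, the membrane aminopeptidase that trims angiotensin II, stood at -0.59, -0.60 and -0.50 on the mutant arrays, against -1.29, -1.54 and -1.38 on the wild-type arrays. Its difference was 0.84 ± 0.07 (adjusted p = 1.57e-05), which held in every alternative run. Leap2, a liver and gut peptide that opposes ghrelin, stood at -1.41, -1.31 and -1.25 on the mutant arrays, against -2.05, -1.94 and -1.94 on the wild-type arrays, and Tmem145, a multi-pass membrane protein, at -0.82, -0.91 and -0.78 on the mutant arrays, against -1.52, -1.66 and -1.55 on the wild-type arrays. They rose by 0.65 ± 0.07 (adjusted p = 9.78e-05) and 0.74 ± 0.06 (adjusted p = 1.93e-05). Ccl25, a chemokine of gut and thymus, rose by 0.60 ± 0.07 (adjusted p = 0.00028), and its second probe by 0.19. Akr1b8, an aldo-keto reductase, and Aadac, a lipase-like deacetylase of the endoplasmic reticulum, rose by 0.63 ± 0.09 and 0.59 ± 0.07. Nr1h3, the oxysterol receptor LXR alpha, stood at 0.51, 0.28 and 0.53 on the mutant arrays, against 0.07, -0.31 and -0.15 on the wild-type arrays, and its rise of 0.57 ± 0.10 (adjusted p = 0.00545) was lost without replicate 3 of both groups (adjusted p = 0.0752).

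Blood clotting factors rose in part. The list holds secreted clotting and fibrinolysis factors and membrane proteins such as Thbd and Procr, and was not limited to products of the endoderm. Of its 26 tested members 5 rose and none fell (19.2%, beside 1.99% of all genes), with a median of 0.11. With median centring 1 rose, and 3 rose with processed signals or without replicate 3 of both groups. F13b, which did not pass, came through the filter only on the mutant E9.5 arrays. Cpb2, the carboxypeptidase that slows the lysis of fibrin, stood at -1.87, -1.79 and -1.84 on the mutant arrays, against -2.69, -2.63 and -2.83 on the wild-type arrays. F2, prothrombin, stood at -1.46, -1.31 and -1.32 on the mutant arrays, against -1.83, -1.82 and -1.83 on the wild-type arrays. Serpinc1, antithrombin, which inhibits thrombin, stood at -1.42, -1.41 and -1.31 on the mutant arrays, against -1.87, -1.92 and -1.75 on the wild-type arrays. The groups were apart by 0.88 ± 0.06 (adjusted p = 4.11e-06), 0.47 ± 0.06 (adjusted p = 0.000601) and 0.47 ± 0.08 (adjusted p = 0.00457). The second probe of Cpb2 rose by 0.75 and that of Serpinc1 by 0.27. With processed signals Serpinc1 lost its call (adjusted p = 0.0659). Proc, protein C, an anticoagulant protease, stood at -1.41, -1.06 and -1.20 on the mutant arrays, against -1.72, -1.68 and -1.84 on the wild-type arrays and rose by 0.52 ± 0.09 (adjusted p = 0.00577), a call lost without replicate 3 of both groups (adjusted p = 0.0817). Plg, plasminogen, the precursor of plasmin, rose by 0.33 ± 0.08 (adjusted p = 0.0368). Serpina10, which inhibits factor Xa and is not a member of this list, rose by 0.33 ± 0.06 (adjusted p = 0.0055), and its second probe by 0.19. Its call was lost without replicate 3 of both groups (adjusted p = 0.0573), with processed signals (adjusted p = 0.308) and with the deposited value table (adjusted p = 0.298). Fgb, a fibrinogen chain singled out after the values were seen, had 0.35 ± 0.09 (adjusted p = 0.0842) and did not pass.

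Complement, lipid-binding and transport lists each had a few calls. Of 22 complement genes tested, 3 rose and C2 fell, beside 1.99% of all genes changed. The other complement genes did not pass, and the list's median was 0.10. Complement genes C8a, C1s1 and Cfb rose by 0.38, 0.33 and 0.33, while C2 fell, with -1.96, -1.57 and -1.85 on the mutant arrays, against -1.0, -1.08 and -1.37 on the wild-type arrays and a difference of -0.64 ± 0.10 (adjusted p = 0.00333). No rise in the complement list was left without mutant replicate 2, where the 3 adjusted p were 0.117, 0.0684 and 0.0606. C8a lost its call without mutant replicates 1 or 2 or wild-type replicates 1 or 3 (adjusted p up to 0.117), and C1s1 lost its call without mutant replicates 2 or 3 or wild-type replicate 2 (adjusted p up to 0.0684). C2 kept its fall with each of the 6 arrays left out in turn, but its second, dimmer probe gave -0.23. C1s1 and C2 act in the classical pathway, Cfb in the alternative pathway and C8a in the membrane attack complex. Of 23 tested genes of fatty acid uptake, binding and esterification, 3 rose and none fell, beside 1.99% of all genes changed. The other members did not pass, and the list's median was 0.04. Fabp1 and Fabp2, the fatty acid binding proteins of liver and gut, rose by 0.47 ± 0.08 (adjusted p = 0.00614) and 0.34 ± 0.08 (adjusted p = 0.0307). Slc27a2, a transporter that activates long fatty acids, rose by 0.47 ± 0.10 (adjusted p = 0.0284), but its second probe gave 0.09. Fabp1 kept its call with each of the 6 arrays left out in turn. Fabp2 and Slc27a2 both lost theirs without mutant replicates 2 and 3 and each wild-type array (adjusted p up to 0.146 and 0.142).

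Of 26 epithelial solute carriers tested, 3 rose and Slc51a fell, beside 1.99% of all genes changed. Without wild-type E8.5 replicate 2, which enters the shared estimate of the spread, 6 rose, and with processed signals or median centring 1 rose. Slc22a6, an exchanger for organic anions, stood at 1.43, 1.30 and 1.51 on the mutant arrays, against 0.83, 0.60 and 0.75 on the wild-type arrays and rose by 0.69 ± 0.10 (adjusted p = 0.00177). Slc22a6 lost its call with processed signals (adjusted p = 0.0733), the deposited value table (adjusted p = 0.0663) and median centring (adjusted p = 0.18). Slc5a4b, of the sodium-glucose transporter family, stood at 1.06, 1.05 and 1.09 on the mutant arrays, against 0.30, 0.43 and 0.49 on the wild-type arrays, rose by 0.66 ± 0.06 (adjusted p = 6.26e-05), and 2 further probes gave 0.45 and 0.55. The reference signal of Slc5a4b was not well above background on any of the 12 arrays, as for Tulp2 and Peg10, and with processed signals its call was lost (adjusted p = 0.397). Slc7a7, a light chain of amino acid exchangers, rose by 0.33 ± 0.07 (adjusted p = 0.0146) and lost its call without mutant replicates 2 or 3 or wild-type replicates 1 or 2 (adjusted p up to 0.0767). In the endocytic apparatus built around cubilin and megalin, 1 of 20 genes passed (5.0%, beside 1.99% of all genes). This gene, Atp6v0a4, a subunit of the proton pump, fell, at -0.35 ± 0.06 (adjusted p = 0.00577). That call was lost without replicate 3 of both groups (adjusted p = 0.0622) and with processed signals (adjusted p = 0.213). None of 18 apolipoprotein genes, 21 lysosomal genes, 18 iron genes, 28 detoxification enzymes, 15 retinoid genes or 19 endoderm transcription factors passed. Of 22 plasma and carrier proteins, Ambp alone passed (4.55%, beside 1.99% of all genes).

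Part of the interferon-induced genes rose. Interferons bind cell-surface receptors, and the signal then switches on antiviral genes through a short promoter element. Of 44 listed genes, 27 passed the filter on dim probes. Of these 9 rose and none fell (33.3%, beside 0.914% of all genes rising), 24 had differences above 0, and the median was 0.23. Ifit1, Ifih1 and Mx2 came through the filter only on the mutant E9.5 arrays, so the 27 are not a neutral sample of the list. With the filter requiring all 12 arrays, 3 of 14 rose (median 0.14), with Feature Extraction's processed signals 5 of 27, with the Xist covariate 6, and with median centring none. Leaving out replicate 3 of both groups left 4, and leaving out single arrays left 7 to 9. The median stayed above 0 in each of these fits.

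Rtp4, a Golgi chaperone of receptors, had log2 ratios of -0.73, -0.72 and -0.74 on the mutant arrays, against -1.19, -1.52 and -1.54 on the wild-type arrays. The mutant values lay within 0.03 of one another, and the difference was 0.68 ± 0.10 (adjusted p = 0.00132). Rtp4 lost its call with processed signals (adjusted p = 0.165) and with the deposited value table (adjusted p = 0.155). Bst2, tetherin, which holds budding viruses at the cell surface, stood at 0.44, 0.43 and 0.29 on the mutant arrays, against -0.13, -0.17 and -0.20 on the wild-type arrays. Isg15, a ubiquitin-like modifier, stood at -0.21, 0.08 and -0.06 on the mutant arrays, against -0.53, -0.50 and -0.65 on the wild-type arrays. Both were apart between groups, by 0.55 ± 0.09 (adjusted p = 0.00575) and 0.49 ± 0.08 (adjusted p = 0.00446). Oasl2 and Oas1a belong to the oligoadenylate synthetase family that senses double-stranded RNA, and Oasl2 stood at -0.59, -0.45 and -0.36 on the mutant arrays, against -0.99, -0.99 and -1.09 on the wild-type arrays. Oas1a stood at -0.09, -0.14 and -0.04 on the mutant arrays, against -0.56, -0.44 and -0.50 on the wild-type arrays. They rose by 0.56 ± 0.09 (adjusted p = 0.00374) and 0.41 ± 0.06 (adjusted p = 0.00123). Usp18, the protease that removes ISG15 and damps the receptor, rose by 0.43 ± 0.06 (adjusted p = 0.0025), and Ifit3, which binds foreign RNA with its partners, by 0.38 ± 0.07 (adjusted p = 0.00803). Parp14 and Trim30a rose by 0.42 and 0.27, but Parp14 lost its call without mutant replicates 2 or 3 or wild-type replicates 2 or 3 (adjusted p up to 0.159), and Trim30a lost its call without mutant replicates 2 or 3 or wild-type replicates 1 or 3 (adjusted p up to 0.121). The calls of Oasl2, Isg15 and Ifit3 were also lost without replicate 3 of both groups (adjusted p = 0.0685, 0.0631 and 0.0859). With processed signals Oasl2, Isg15, Parp14 and Trim30a lost theirs (adjusted p = 0.246, 0.0503, 0.0687 and 0.32).

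Other members of the list did not pass. Stat2 and Irf9, factors that carry the signal to the nucleus, had differences of 0.07 ± 0.08 and 0.19 ± 0.07 (adjusted p = 0.812 and 0.238). Gbp3, an interferon-induced GTPase, had 0.36 ± 0.09 (adjusted p = 0.0677). Ifit1 was well above background on all 3 mutant arrays and on none of the wild-type arrays, and its fitted difference of 0.24 ± 0.07 (adjusted p = 0.114) did not pass. Lgals3bp, a secreted glycoprotein, was the lowest of the list at -0.26 ± 0.08 (adjusted p = 0.14). H2-K1, a class I molecule that presents peptides, rose by 0.33 ± 0.08 (adjusted p = 0.046), but its other probes gave 0.11 and 0.06 and the call was lost without any one of the 6 arrays (adjusted p up to 0.175). Outside the list, Ifi27l2b, another interferon-induced gene, rose by 0.73 ± 0.10 (adjusted p = 0.00127) and at E8.5 by 0.81 ± 0.10 (adjusted p = 0.000896), and Igtp, an interferon-induced GTPase noticed after the values were seen, by 0.41 ± 0.08 (adjusted p = 0.0192).

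Promoter windows of 300 bases (250 before and 50 after the transcription start) were available from RefSeq on GRCm38.p6 for 20 of the 27 genes. They were searched on both strands for GAAANNGAA, the core of the interferon response element, whose reverse complement is TTCNNTTTC; matches may overlap. It was found in 5 of the 6 risen genes with a window and in 8 of the 14 that did not pass, against 7.97% of all 9825 tested genes with a window. Of all 127 risen genes, 10 of the 91 with a window held it, and of the 150 fallen genes, 7 of 114. The stretches of 4 risen genes are shown because each holds more than 1 match, given in capitals with 30 bases on either side, 5′ to 3′ on the strand of the gene.
Isg15 (chr4:156200846-156200926, minus strand): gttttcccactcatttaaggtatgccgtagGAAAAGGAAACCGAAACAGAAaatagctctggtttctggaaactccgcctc
Bst2 (chr8:71537558-71537632, minus strand): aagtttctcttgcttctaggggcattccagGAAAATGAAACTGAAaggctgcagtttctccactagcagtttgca
Oas1a (chr5:120907501-120907575, minus strand): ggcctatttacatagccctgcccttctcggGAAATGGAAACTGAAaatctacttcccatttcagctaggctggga
Ifit3 (chr19:34583344-34583465, plus strand): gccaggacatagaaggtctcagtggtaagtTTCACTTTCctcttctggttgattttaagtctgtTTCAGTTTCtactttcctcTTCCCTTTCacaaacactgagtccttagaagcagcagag
In Isg15 3 matches overlap in 1 run, and in Bst2 and Oas1a 2 matches overlap. The match is a property of the sequence and does not show that a factor was bound there.

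**Figure D2:**
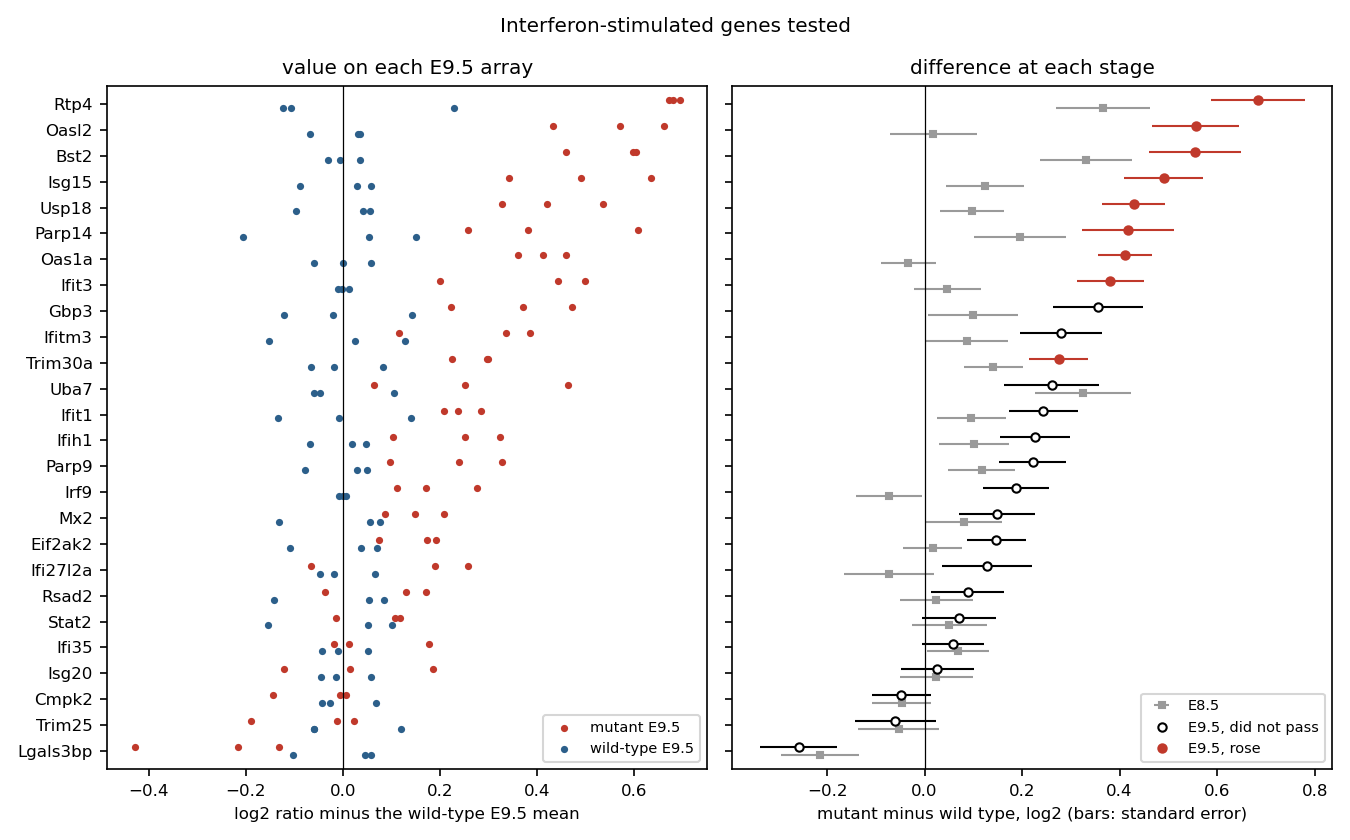
Left, the log2 ratio on each E9.5 array minus the wild-type E9.5 mean for 26 of the 27 interferon-stimulated genes tested (red, 3 mutant arrays; blue, 3 wild-type arrays); right, the mutant minus wild-type difference with its standard error at E8.5 (grey squares) and E9.5 (circles, filled red where the gene rose). The 9 genes that rose sit between 0.27 and 0.68, and at E8.5 none of the 27 passed.

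Among 29 tested genes of interferon and related receptors and their upstream signalling, 3 receptor chains fell. None rose (10.3% called, beside 1.08% of all genes falling), and with median centring none fell. Il10rb, a chain shared by the receptors of IL-10 and of lambda interferons, stood at -1.42, -1.31 and -1.57 on the mutant arrays, against -0.73, -0.85 and -0.82 on the wild-type arrays. Its difference was -0.63 ± 0.07 (adjusted p = 0.000242). Ifngr2, the signalling chain for interferon gamma, fell, at -0.36 ± 0.07 (adjusted p = 0.0133), and its second probe gave -0.22. Ifnar2, a chain of the receptor for type I interferons, fell, at -0.24 ± 0.05 (adjusted p = 0.024), its second probe giving -0.21. Ifngr2 lost its call without mutant replicate 1 or wild-type replicate 2 (adjusted p up to 0.0713). Ifnar2 lost its call without mutant replicates 2 or 3 or wild-type replicates 1, 2 or 3 (adjusted p up to 0.0974). These genes are neighbours on chromosome 16, and Ifnar1, which lies between Il10rb and Ifngr2, had 0.02 ± 0.06 (adjusted p = 0.942). The other 26 tested genes of receptors and upstream signalling did not pass.

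Genes of vessels, matrix and growth-factor signalling gave scattered calls. Esm1, a proteoglycan secreted by sprouting endothelial tip cells, stood at 0.65, 0.85 and 0.55 on the mutant arrays, against -0.04, 0.03 and -0.17 on the wild-type arrays and rose by 0.74 ± 0.10 (adjusted p = 0.00121). Unc5b, a netrin receptor of endothelium, fell, at -0.35 ± 0.08 (adjusted p = 0.0275) but lost its call without mutant replicates 1, 2 or 3 or wild-type replicate 2 (adjusted p up to 0.134). None of 31 endothelial identity genes passed (median 0.01), and none of 19 Notch and arterial genes. Gja5, the arterial gap junction protein connexin 40, stood at 0.66, 0.96 and 0.80 on the mutant arrays, against 1.28, 1.52 and 1.43 on the wild-type arrays; this difference of -0.61 ± 0.16 (adjusted p = 0.0696) was singled out after the values were seen and did not pass.

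Of 31 genes of TGF-beta and BMP signalling 3 rose and none fell (9.68%, beside 0.914% of all genes rising), with a median of 0.03. With processed signals or the Xist covariate 1 rose, and with median centring none. Ccn2, a matricellular protein induced by TGF-beta, stood at -2.15, -2.47 and -2.44 on the mutant arrays, against -3.00, -2.91 and -2.66 on the wild-type arrays, Tgfbi, an adhesion protein of the matrix, at -2.14, -2.46 and -2.49 on the mutant arrays, against -2.94, -2.78 and -2.83 on the wild-type arrays, and Id3, a BMP target that blocks helix-loop-helix factors, at 0.10, 0.28 and 0.31 on the mutant arrays, against -0.21, -0.24 and -0.22 on the wild-type arrays. Their differences were 0.50 ± 0.10 (adjusted p = 0.0173), 0.48 ± 0.09 (adjusted p = 0.0129) and 0.46 ± 0.08 (adjusted p = 0.00785). Tgfbi lost its call without wild-type replicate 1 (adjusted p = 0.0732). Ccn2 lost its call without mutant replicate 1 or wild-type replicates 1 or 2 (adjusted p up to 0.101). Id3 lost its call without replicate 3 of both groups (adjusted p = 0.0872) and with the Xist covariate (adjusted p = 0.0676). Id3 lies on chromosome 4, 44 tested genes from Arid1a, and the part of the linked chromosome in its rise was not tested. Sparc, a collagen-binding matrix protein abundant in parietal endoderm, rose by 0.34 ± 0.06 (adjusted p = 0.00785), and Lamb2, a laminin chain, by 0.27 ± 0.06 (adjusted p = 0.0304). The second, bright probe of Sparc gave 0.16, and its call was lost with the mean of both probes (adjusted p = 0.0627) and without replicate 3 of both groups (adjusted p = 0.0979). Lamb2 lost its call without mutant replicates 2 or 3 or wild-type replicates 1 or 3 (adjusted p up to 0.157). No fibrillar or basement membrane collagen passed. Dkk1, a secreted Wnt antagonist, rose by 0.53 ± 0.10 (adjusted p = 0.0114), with a second probe at 0.08. It was the 1 of 20 Wnt genes called (5.0%, beside 1.99% of all genes). It lost its call without mutant replicate 3 or wild-type replicates 1 or 2 (adjusted p up to 0.0665). Cdx2, a homeobox factor of extraembryonic and posterior tissues, stood at 0.41, 0.38 and 0.59 on the mutant arrays, against 0.86, 0.93 and 0.77 on the wild-type arrays and fell, at -0.39 ± 0.07 (adjusted p = 0.0061).

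Red blood cell genes did not pass the test. None of 6 globins, 13 haem synthesis enzymes, 19 red cell membrane genes, 19 erythroid factors and receptors or 21 progenitor regulators was called. On the array level, the mean log2 ratio of the red cell membrane list was 0.09, -0.24 and -0.32 in the mutants and -0.21, -0.19 and -0.24 in wild type, so mutant replicate 1 stood above the rest. Ppbp, a platelet chemokine, rose by 0.47 ± 0.09 (adjusted p = 0.0129) as the 1 of 20 megakaryocyte genes called (5.0%, beside 1.99% of all genes). It lost its call without mutant replicates 2 or 3 or wild-type replicate 1 (adjusted p up to 0.0691). Of 50 ribosomal protein genes only Rpl11 passed (2.0%, beside 1.99% of all genes). It stood at -0.19, -0.17 and -0.25 on the mutant arrays, against 0.67, 0.71 and 0.65 on the wild-type arrays, a difference of -0.88 ± 0.06 (adjusted p = 4.11e-06), but a second, much dimmer probe gave -0.16.

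Lists of cell state showed few or no calls. None of 39 cell cycle genes, 33 hypoxia and glycolysis genes, 25 cholesterol synthesis genes, 28 stress-response genes of the unfolded protein pathway, 14 DNA methylation genes or 32 other chromatin remodellers passed. Pmaip1, the apoptosis gene Noxa, stood at 0.26, 0.47 and 0.27 on the mutant arrays, against -0.04, -0.21 and -0.14 on the wild-type arrays. It rose by 0.46 ± 0.07 (adjusted p = 0.0034) as the 1 of 24 p53 targets called (4.17%, beside 1.99% of all genes). Peg10, an imprinted gene derived from a retrotransposon, fell, at -0.35 ± 0.08 (adjusted p = 0.0412) as the 1 of 28 imprinted genes called (3.57%, beside 1.99% of all genes). It lost its call without mutant replicates 1, 2 or 3 or wild-type replicates 2 or 3 (adjusted p up to 0.186). Hspa1a, an inducible heat shock protein also noticed after the values were seen, had the widest difference of the 22 chaperones at 0.98 ± 0.43 (adjusted p = 0.379), with 0.44, -0.12 and -1.0 on the mutant arrays, against -1.42, -1.36 and -0.85 on the wild-type arrays; the groups overlapped. Markers of heart, nerve and decidua had no calls. Across all 51 lists, 27 had no gene called. Those 27 held 546 tested members, counted once per list, beside 1.99% of all genes called. Some were small, such as the neural list with 6 tested genes and the decidual list with 4.

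**Figure D3:**
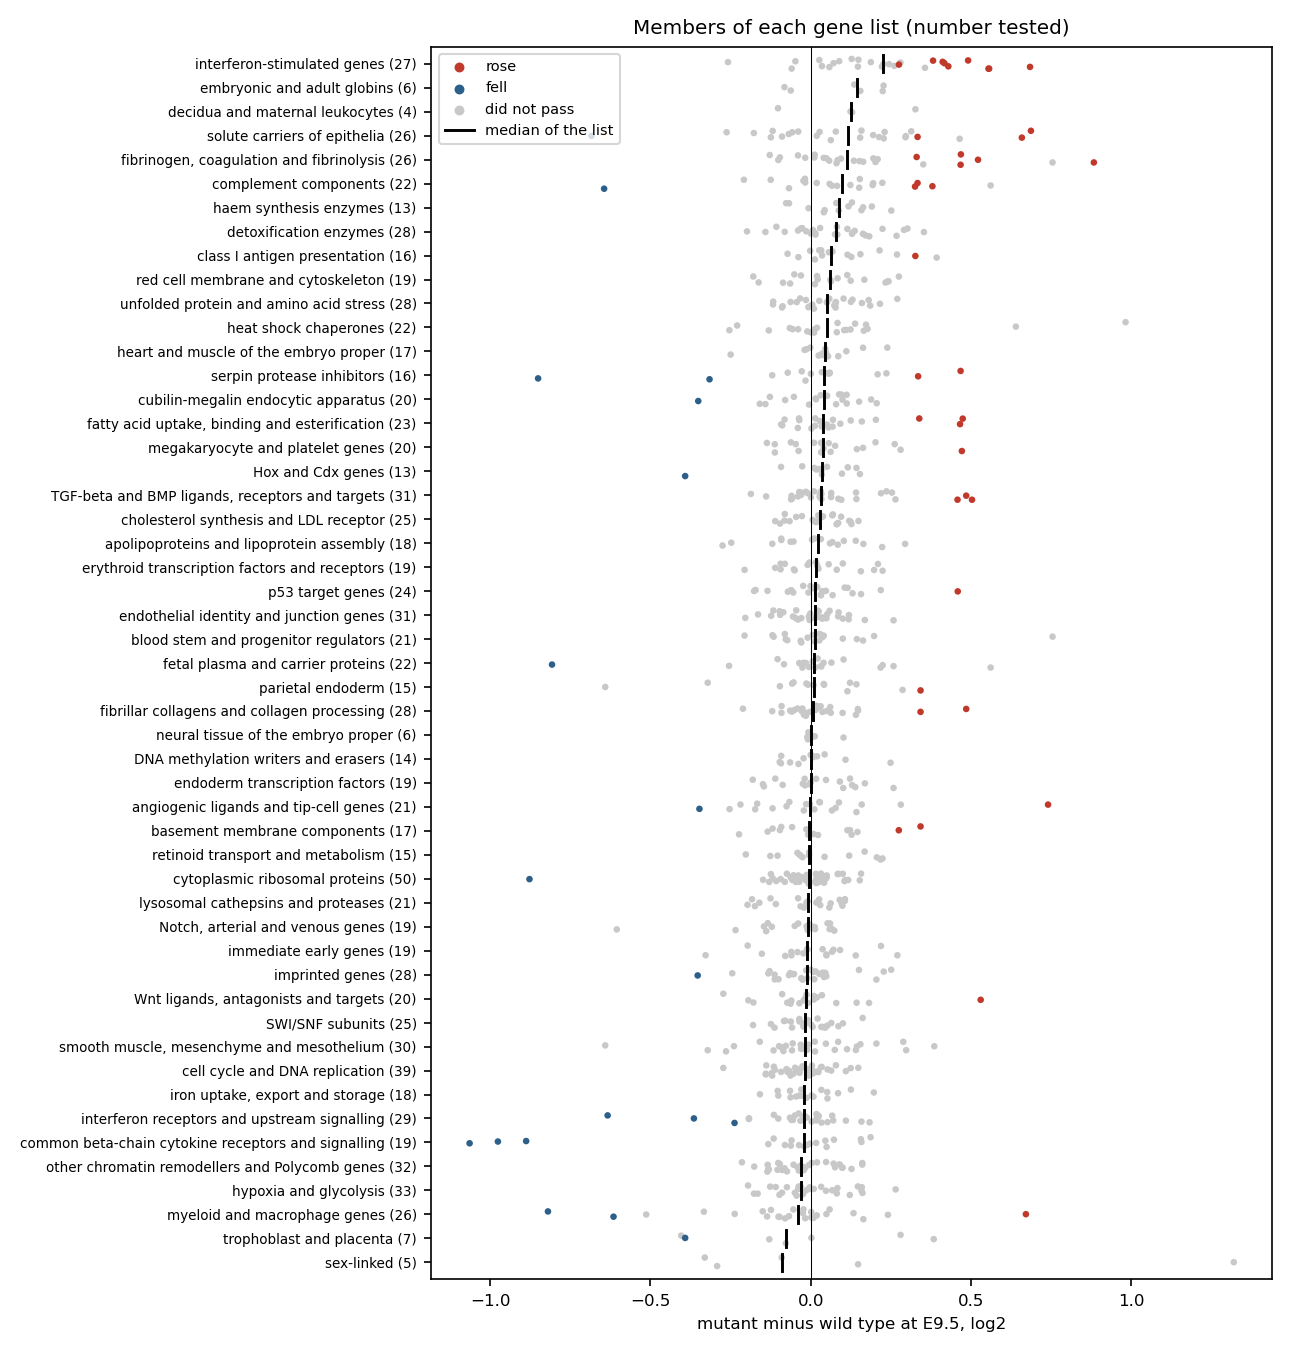
Mutant minus wild-type difference at E9.5 (log2, horizontal axis) of each tested member of 51 gene lists, ordered by list median (black bars); red points rose, blue points fell and grey points did not pass. The interferon list has the highest median, 0.23, and the 3 farthest falls belong to the list of common beta-chain cytokine receptors and signalling.

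The same contrast at E8.5, on the other 6 arrays, called 200 genes (1.44%). That count was 24 with the Xist ratio as a covariate and 10 with median centring. Xist stood at -1.76, -4.02 and -4.17 on the mutant E8.5 arrays, against -1.37, -0.67 and -1.03 on the wild-type E8.5 arrays, without overlap. Of the 277 genes changed at E9.5, 86 were also called at E8.5, all with the same sign: 34 rose and 52 fell. That is 31% of the E9.5 calls and 43% of the E8.5 calls. Emid1 differed by -1.13 ± 0.09 at E9.5 and -1.30 ± 0.09 at E8.5, and Csf2rb by -1.06 ± 0.13 and -1.18 ± 0.13. Tmem145 differed by 0.74 ± 0.06 at E9.5 and 0.80 ± 0.06 at E8.5. In the interferon list none of the 27 genes was called at E8.5 (median 0.08), with Oasl2 at 0.56 ± 0.09 at E9.5 and 0.02 ± 0.09 at E8.5. Pik3cd was also called at the earlier stage, at -0.42 ± 0.08 (adjusted p = 0.0186), while Plekhd1 was not, at -0.10 ± 0.07 (adjusted p = 0.621).

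A test of the stage difference itself called no gene (0% of 13896). The lowest adjusted p was 0.112, for Plekhd1, and 795 genes had an unadjusted p under 0.05. With the replicate as a block 1 gene was called, with array weights 5. An E9.5 call without an E8.5 call therefore does not show that the 2 stages differ.

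**Figure D4:**
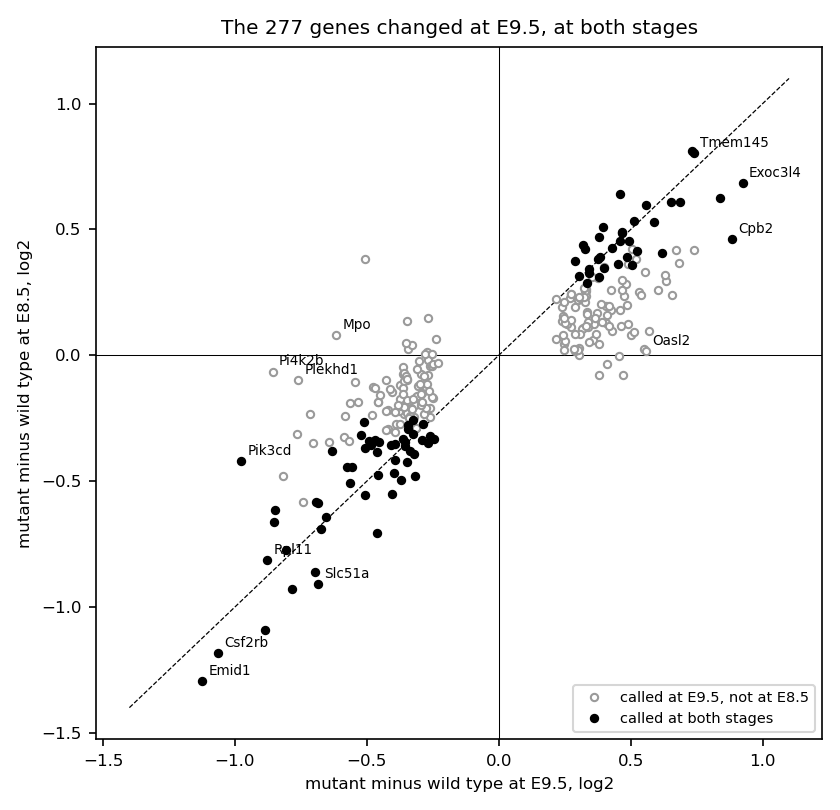
Mutant minus wild-type difference at E9.5 (horizontal axis) and E8.5 (vertical axis), log2, for the 277 genes changed at E9.5; filled points were called at both stages, open points at E9.5 and not at E8.5, and the dashed line marks equal differences. All 86 filled points lie in the quadrants of equal sign, with Emid1 and Csf2rb the farthest.

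Changed genes were unevenly placed around the mutated gene. Gene order was taken from RefSeq. Chromosome 4, which carries Arid1a, had 27 changed genes of 782 tested (3.45%), beside 1.99% overall. Within 50 tested genes on either side of Arid1a, 9 of 100 had changed. The share was 4% of the next 100 genes, 2.5% of the next 200 and 2.36% beyond. Snhg3, Pafah2, Aunip, Clic4, Pnrc2 and Rpl11 fell, and Eloa, Id3 and Asap3 rose. Pafah2, a phospholipase that hydrolyses oxidised phospholipids, stood at 0.64, 0.55 and 0.69 on the mutant arrays, against 1.33, 1.27 and 1.33 on the wild-type arrays, a difference of -0.68 ± 0.08 (adjusted p = 0.000274). Pnrc2, a nuclear receptor coactivator, stood at -1.0, -1.05 and -1.0 on the mutant arrays, against -0.40, -0.63 and -0.44 on the wild-type arrays and fell, at -0.52 ± 0.07 (adjusted p = 0.000958). Clic4, an intracellular chloride channel protein, fell, at -0.71 ± 0.14 (adjusted p = 0.0129), with its second probe at 0.02, and lost its call without mutant replicate 2 or wild-type replicates 1 or 2 (adjusted p up to 0.0717). Mutant and wild-type embryos can differ in this region by the allele itself and by the linked chromosome, which cannot be told apart in this design.

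**Figure D5:**
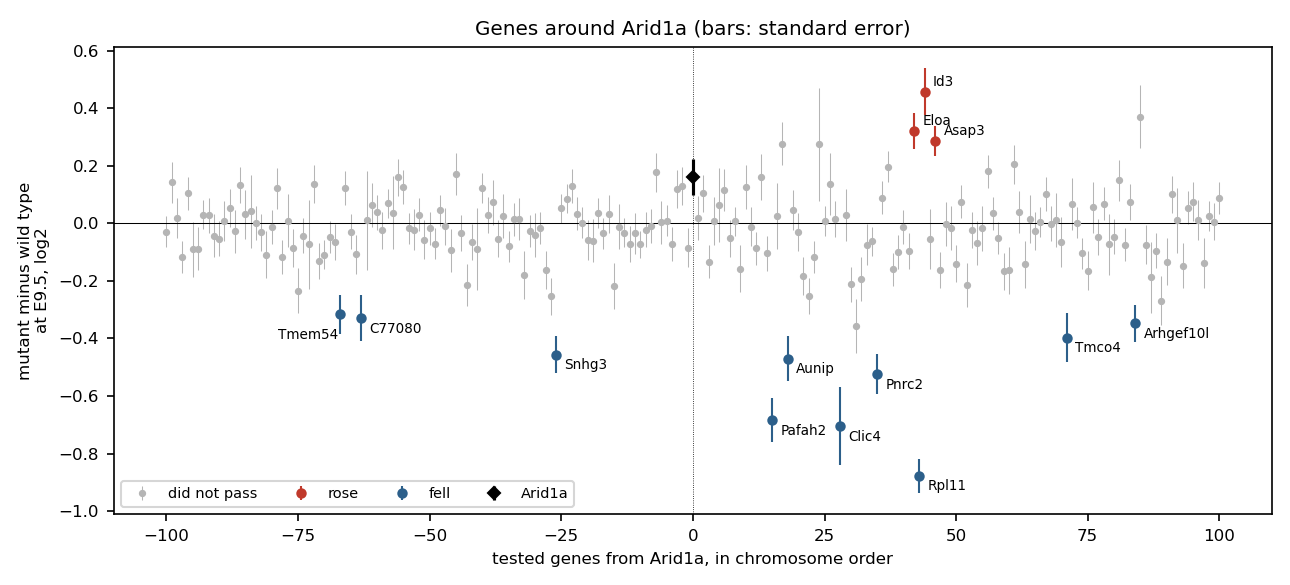
Mutant minus wild-type difference at E9.5 with its standard error (log2) for the 100 tested genes on each side of Arid1a, by gene order on chromosome 4; blue points fell, red points rose, grey points did not pass and the black diamond is Arid1a. Most calls lie on one side, between Pafah2 and Asap3, with Rpl11 lowest at -0.88.

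Some changed genes also lay near one another elsewhere. Runs of at least 3 changed genes, each within 10 tested genes of the next, numbered 7 and held 28 of the 269 changed genes with a position. The number of runs that scattered calls would give was not worked out, so this count does not show clustering. Apart from the run of 8 genes near Arid1a, these were picked out by their position after the values were seen. On chromosome 15, Csf2rb2, Csf2rb, Card10 and Sh3bp1 all fell. Sh3bp1, a regulator of Rac, fell, at -0.38 ± 0.06 (adjusted p = 0.00489). On chromosome 13, the adjacent genes Bhmt, Bhmt2 and Dmgdh rose, by 0.31 ± 0.06, 0.47 ± 0.10 and 0.41 ± 0.07; Bhmt and Bhmt2 encode methyltransferases of homocysteine, and Dmgdh an enzyme of dimethylglycine breakdown. Elsewhere on that chromosome Mboat1, Serpinb1a and Serpinb6a fell, but Serpinb6a lost its call without mutant replicates 1 or 2 or wild-type replicates 1, 2 or 3 (adjusted p up to 0.122). Septin9, a cytoskeletal GTPase, and St6galnac2, a sialyltransferase, fell on chromosome 11, at -0.56 ± 0.09 and -0.51 ± 0.10, with Ube2o and Rnf157 nearby. In 5 of the 7 runs all genes moved in the same direction. The linkage background of these regions was not tested.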

How the data were processed

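The members and gene lists were chosen with earlier results of these data known. Yolk sac RNA (Cy5) was hybridised against 1 common reference (Cy3) on 12 Agilent 2-colour arrays. Per the file headers the deposited files hold spot and local background intensity, 0 or 1 flags per spot, and a log10 ratio of Cy5 over Cy3 from Agilent Feature Extraction 9.5.1.1, background-subtracted and LOWESS dye-normalized by that program. The deposited value table holds log2 ratios that the authors centred on each probe's median. For comparison, the log10 ratios of the same arrays were converted to log2 and centred on each probe's median. Centring and direction were found from correlations of 0.9997 or more with these, and the base from slopes between 0.9993 and 0.9999. Which filter the value table went through is not stated in its header or the labels. All arrays run the same way, with yolk sac over reference, so a dye effect common to them cancels in differences.

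Mean signals were background-corrected with normexp (offset 50), after spots more than 20 below their local background were set to missing, a rule added after the values were seen because such spots distorted the correction on mutant E9.5 replicate 3. Loess within each array followed, with limma 3.58.1 in R 4.3.3. A probe entered the fit if the flags put its Cy5 signal well above background in each of the 3 replicates of any of the 4 groups. Of 41174 probes, 23374 were named through their accession, 6733 through a symbol and 2919 through an older symbol in RefSeq's gene table, and 8148 kept the file's name. Spots of a probe were averaged, and the brightest kept probe stood for its gene. Among the changed genes 87 had further probes, and in 45 of them 1 of these differed in the same direction by 50% or more of the reported value.

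A limma model (lmFit, eBayes) with 1 mean for each of 4 groups was fitted on all 12 arrays, so that both stages share the estimate of the spread, with p-values adjusted by Benjamini-Hochberg over all genes and a threshold of 0.05. The genes named are the 25 largest rises and 25 largest falls with official symbols, up to 4 called members of each list in either direction, the most variable marker of each other tissue, Arid1a, and any interferon-list member, of which 1 is counted in the list but not reported here by itself. Plg, genes named for their position and those marked in the text were named after their values were seen, as were the genes in the last section's gene paragraphs. The code was checked on simulated data.

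Arrays of 1 replicate number share a scan time and a grid name in the headers, which was taken as their slide, although the header barcode of replicate 3 repeats that of replicate 2. Each group keeps its own position in this layout, so an effect of position cannot be told apart from genotype. Deviations from the group mean correlated at 0.137, 0.295 and 0.143 between same-numbered E9.5 mutant and wild-type arrays, so the replicate number was also run as a block. Precision is limited by the 3 arrays of a group. Other alternatives were the E9.5 arrays alone, the processed signals, the deposited table, centring, background correction, probe choice, filters, array weights, Xist as a covariate, and arrays left out.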

Additional observations from a re-analysis of the deposited data

Results flagged for a closer look

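All 81 changed genes taken up by the naming rule were searched for opposite signs of the mutant minus wild-type difference at the 2 stages. In 3 of them the signs were opposite in all 3 pairs of same-numbered arrays: below 0 in each pair at E9.5 and above 0 in each at E8.5. How many genes would do so without a stage difference was not worked out. For Mpo the difference was -0.62 ± 0.10 at E9.5 and 0.08 ± 0.10 at E8.5, so the change with stage was -0.697 (adjusted p = 0.266). For Ifnar2 it was -0.24 ± 0.05 at E9.5 and 0.06 ± 0.05 at E8.5, a change of -0.302 (adjusted p = 0.324). For Unc5b it was -0.35 ± 0.08 at E9.5 and 0.14 ± 0.08 at E8.5, a change of -0.485 (adjusted p = 0.291). None of these stage differences passed limma's interaction test. At E8.5 the 3 differences had adjusted p of 0.824, 0.677 and 0.503.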

How the results depend on the processing

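The 277 genes changed at E9.5 became 358 with the replicate block, 173 with processed signals, 181 with the deposited value table, 26 with median centring, 134 with Xist as a covariate and 158 without replicate 3 of both E9.5 groups. Leaving out single arrays gave 145 to 369. The 200 genes called at E8.5 became 10 with median centring, 24 with the Xist covariate and 423 with array weights, and 93 to 222 with single arrays left out. The stage difference, with no gene called, gave 1 with the replicate block, 1 without background correction, 5 with array weights and 3 without replicate 3 of both E9.5 groups, and 0 to 5 with single arrays left out. All 81 called genes taken up by the naming rule kept their call with the replicate block and their sign in every alternative that measured them. Calls were lost for 9 with the E9.5 arrays alone, 30 with processed signals, 24 of 77 with the deposited table, 62 with median centring and 20 with the Xist covariate. Median centring moved the median of all genes by -0.0564.

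Genes that had not passed turned sign as follows. With single arrays left out, Prl4a1 ranged between -1.48 and 0.75, Prl8a2 between -0.42 and 0.84, Stmn2 between -0.12 and 0.079, Isg20 between -0.053 and 0.10, and Ifi35 between -0.0025 and 0.095. Stat2 ranged between -0.0059 and 0.12, and Trim25 between -0.10 and 0.0051. Stmn2 gave 0.040 with array weights, and Trim25 0.0080 with the mean of its probes. Median centring gave -0.029 for Isg20. Without replicate 3 of both E9.5 groups, Isg20 gave -0.076 and Rsad2 -0.0030. The causes were not tested. Signal over background limits the dim genes. Of 13896 genes tested, 12587 had a probe well above background on all 12 arrays, and a fit of these alone gave 248 calls. In 68 tested genes all 3 arrays of one E9.5 group and none of the other were well above background, and 1 of them had changed.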

Other observations

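Beyond the lists, some enzymes and surface proteins of absorptive and liver-type epithelia were among the rises. They were picked out after their values were seen and carry no test as a group. How many such genes rose or fell among all genes was not counted. Other genes of such epithelia fell, among them Ambp (-0.81), Slc51a (-0.68) and Atp6v0a4 (-0.35). In the list of plasma and carrier proteins none rose and 1 of 22 fell (median 0.01). Ggt1, the membrane enzyme that cleaves glutathione, stood at 0.14, 0.03 and 0.25 on the mutant arrays, against -0.53, -0.25 and -0.29 on the wild-type arrays, and Lect2, a hepatokine, at -0.01, 0.05 and -0.05 on the mutant arrays, against -0.35, -0.59 and -0.53 on the wild-type arrays. They rose by 0.49 ± 0.08 (adjusted p = 0.00306) and 0.49 ± 0.07 (adjusted p = 0.00123). Gys2, liver glycogen synthase, rose by 0.51 ± 0.07 (adjusted p = 0.00112), while Pygl, which breaks glycogen down, fell, at -0.74 ± 0.17 (adjusted p = 0.0401) and lost its call without mutant replicates 1, 2 or 3 or wild-type replicates 1 or 2 (adjusted p up to 0.164). Cltrn, a collectrin that helps amino acid transporters reach the brush border, rose by 0.46 ± 0.07 (adjusted p = 0.00374), and its partner Slc6a20b by 0.43 ± 0.07 (adjusted p = 0.00352). Car4, a membrane carbonic anhydrase, stood at 3.80, 3.98 and 3.96 on the mutant arrays, against 3.55, 3.51 and 3.54 on the wild-type arrays and rose by 0.38 ± 0.06 (adjusted p = 0.00199). Naprt, of NAD synthesis, rose by 0.50 ± 0.08 (adjusted p = 0.00217), and Otc, of the urea cycle, by 0.25 ± 0.06 (adjusted p = 0.0362).

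Another set, again picked out from the calls, concerned actin and cell contacts among the falls. Lcp1, an actin bundler of leukocytes, stood at 0.79, 0.95 and 0.97 on the mutant arrays, against 1.48, 1.56 and 1.27 on the wild-type arrays, and Arpc1b, a subunit of the Arp2/3 complex, at -0.02, -0.05 and 0.11 on the mutant arrays, against 0.48, 0.57 and 0.43 on the wild-type arrays. They fell, at -0.53 ± 0.08 (adjusted p = 0.00269) and -0.48 ± 0.06 (adjusted p = 0.00104). Limk2, a kinase that inactivates cofilin, fell, at -0.57 ± 0.06 (adjusted p = 0.000249), and Coro7, a coronin, at -0.46 ± 0.07 (adjusted p = 0.00158). Coro1a, the leukocyte coronin, had -0.33 ± 0.08 (adjusted p = 0.0513) and did not pass. Among epithelial surface genes, Epcam, an adhesion molecule, stood at -0.71, -0.74 and -0.75 on the mutant arrays, against -0.26, -0.36 and -0.23 on the wild-type arrays, and Spint1, an inhibitor of matriptase, at 1.62, 1.61 and 1.84 on the mutant arrays, against 2.15, 2.20 and 2.17 on the wild-type arrays. They fell, at -0.45 ± 0.09 (adjusted p = 0.0127) and -0.48 ± 0.06 (adjusted p = 0.000958). Galnt3, which starts mucin-type glycans, fell, at -0.41 ± 0.07 (adjusted p = 0.00577). At E8.5, Limk2, Spint1 and Galnt3 were called as well, at -0.51 ± 0.06, -0.36 ± 0.06 and -0.36 ± 0.07.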
